A study of Parachlorella kessleri with 6 samples.

Results

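ATP-binding cassette (ABC) transporters were examined in Parachlorella kessleri, a unicellular green alga, under control conditions and under salt stress. They were taken as the rows of the expression table whose Pfam annotation holds a domain named ABC_tran, ABC_membrane, ABC_membrane_2 or ABC2_membrane. Rows named for elongation factor 3 or for SMC chromosome proteins, whose ATPase domains are related, were to be left out. Of 22972 assembled genes, 82 held such a domain, 1 of them was named elongation factor 3 (TRINITY_DN5121_c5_g1), and 81 remained. No measured value entered this choice. The study sequenced total RNA of cells after 2 days under control or salt conditions, with 3 libraries per condition. The sources used here name neither the salt, its concentration nor the strain. Whether replicates came from separate cultures is not stated, so a p-value reflects the spread among these samples alone, and that spread may be technical.

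ABC transporters couple ATP hydrolysis to the movement of lipids, metals, peptides, hormones and conjugated toxins across membranes. A working transporter needs a pair of ATPase domains (ABC_tran in Pfam) and a pair of membrane-spanning domains, which lie in a single chain or in separate chains that join. Plant and algal members are sorted into lettered subfamilies. Subfamilies A to D and G span membranes, subfamilies E and F consist of ATPase domains alone and act on ribosomes, and subfamily I collects small proteins akin to bacterial subunits. All names given here are those of the best match in another organism and do not establish what a protein moves in this alga.

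The libraries held between 16460455 counts (control replicate 3) and 24065705 counts (control replicate 1). Control replicate 1 and salt replicate 1 stood apart from the other libraries of their groups, with a chi-square per gene of 151 to 175 between control replicate 1 and the other controls against 5.43 between control replicates 2 and 3, and of 50.9 to 61.4 against 33.9 in salt. Counts and calls that changed by over 1.5 times or crossed the threshold without control replicate 1 are given with and without it. Photosynthesis genes of a green alga were present in every library, from 2171 to 11165 CPM (counts scaled to a common library size) summed over 40 rows named chlorophyll a-b binding protein and from 1843 to 2725 CPM over 6 rows of the Rubisco small subunit. The best match in the non-redundant protein database was a green alga for 68 of the 81 rows and another organism, mostly a land plant, for 10, and 3 had none; which of these 13 rows come from the alga was not tested.

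The predicted proteins showed the layouts known from other organisms. The row named for ABC transporter C family member 2 (TRINITY_DN4467_c0_g5) encoded a complete full-size transporter in a single chain, with ABC_membrane at residues 245 to 507, ABC_tran at 571 to 704, a further ABC_membrane at 963 to 1205 and a further ABC_tran at 1293 to 1441. A row with the KEGG name ABCB6 (TRINITY_DN4397_c0_g2) held a single membrane domain, at residues 217 to 527, followed by a single ATPase domain, at 589 to 739. In ABC transporter G family member 15 (TRINITY_DN2262_c0_g1) the order was the other way, with the ATPase domain ahead of ABC2_membrane. Of the 6 subfamily G rows with both domains in 1 frame, 4 had this order and 2, the rows of family members 35 and 36, had the membrane domain first. ABC transporter F family member 1 (TRINITY_DN5248_c1_g1) and the row with the KEGG name ABCE1 (TRINITY_DN4323_c0_g1) held a pair of ATPase domains and no membrane domain, at residues 85 to 242 and 398 to 529 in the former and at 113 to 255 and 382 to 505 in the latter. Many other rows were pieces: 24 of the 81 carried ABC domains in more than 1 reading frame, and 25 also held a reading frame with no ABC domain at all. Counts of these 25 rows sum the transporter with whatever the other frame encodes, and they are named as mixed rows below. Whether the other protein is related to the transporter was not tested. In TRINITY_DN4567_c2_g4 it matched UPF0014, a family named for a membrane protein.

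**Figure D1:**
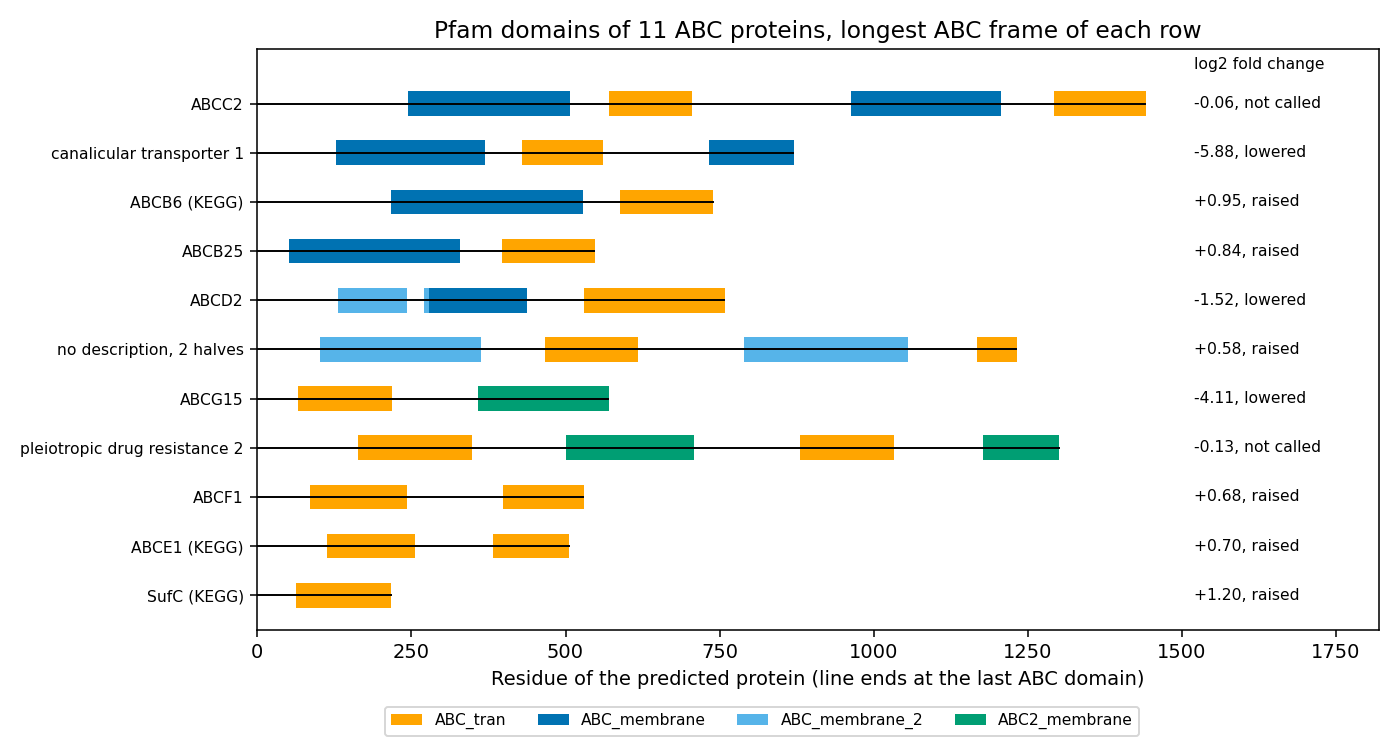
Pfam domains of 11 ABC proteins, drawn to scale along the predicted protein in residues from the first residue of the frame to the end of its last ABC domain, with the log2 fold change in salt at the right. The rows were chosen after their values were seen, to show 1 layout each; membrane domains precede the ATPase domain in subfamilies B, C and D and follow it in the ABCG15 and pleiotropic drug resistance rows shown, and ABCF1 and ABCE1 hold ATPase domains alone.

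ABC transporter genes as a whole moved with salt about as often as other genes, and in both directions. Of the 81, 79 had enough counts to be tested with edgeR's quasi-likelihood test, with p-values adjusted by Benjamini and Hochberg over all 11438 genes tested; a gene is called raised or lowered at an adjusted p under 0.05. Salt raised 20 and lowered 27, and 32 were not called. The 47 called members are 59.5% of those tested, against 57.8% of all genes. Raised members made up 25.3%, against 29.1% of all genes, and lowered members 34.2%, against 28.7%. The median log2 fold change of the 79 was -0.06, and that of all genes 0.01. Control and salt libraries did not overlap in 51 members, or 64.6%, against 66.7% of all genes. Of those tested, 6 members (7.59%) were raised and 11 (13.9%) lowered by at least 2-fold, against 15.9% and 17.7% of all genes. A rule named 20 members for full description, and other members given with a value were chosen after their values were seen. In bulk RNA, a change in the share of cells that use a gene and a change in RNA per cell cannot be told apart.

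The 2 rows that were not tested held almost no reads. TRINITY_DN4609_c0_g3, with the KEGG name ABCB1, had 2 to 5 counts per library. TRINITY_DN962_c0_g1 had 0 counts in all 6, which allows up to 0.125 to 0.182 CPM. Among the tested rows, levels per transcript length (FPKM, which corrects for library size too) ran from 1.39 to 391 as means of all libraries, with a median of 38.4. Together the 81 rows took 1.18% to 1.67% of each library's counts.

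**Figure D2:**
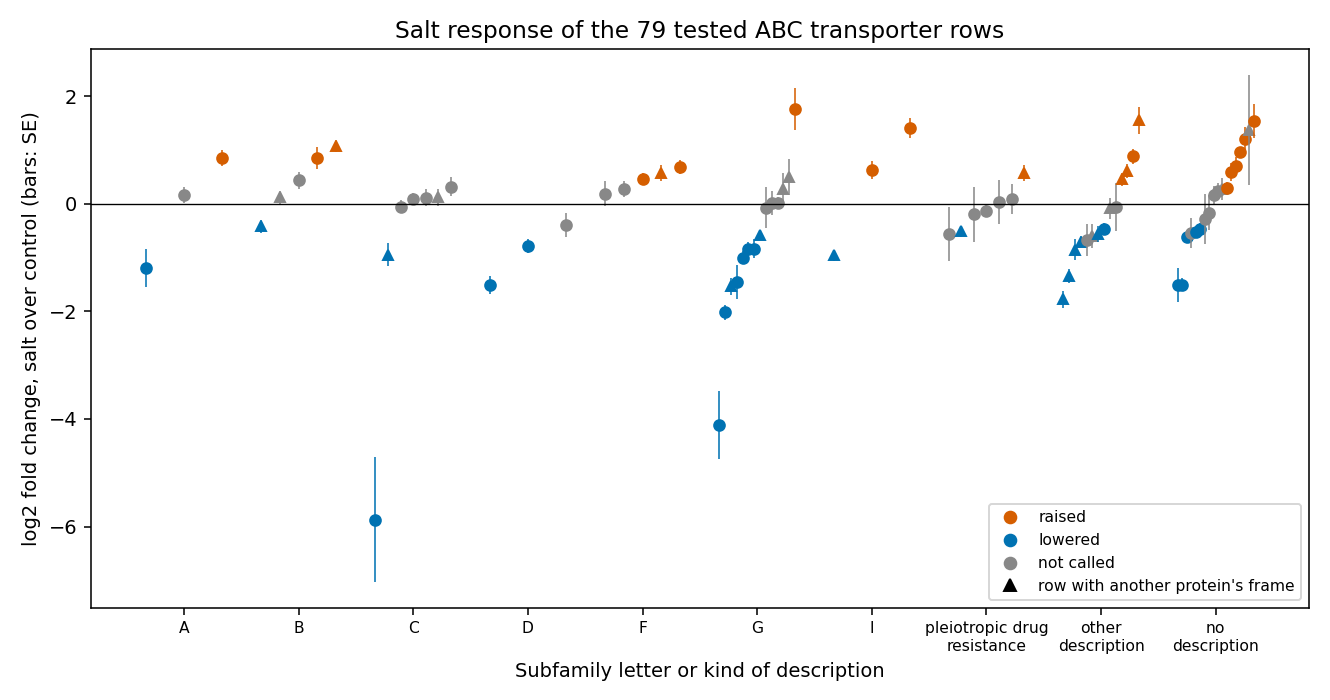
Log2 fold change of salt over control for each of the 79 tested ABC transporter rows, by subfamily letter or kind of description, with standard errors as bars; colours mark raised, lowered and not called, and triangles mark mixed rows. Subfamily F lies above 0 throughout, 8 of 14 subfamily G rows were lowered, and the deepest fall, at -5.88, is in subfamily C.

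Of the 5 rows of subfamily F, ATPases without membrane domains that act on ribosomes, 3 were raised, 0 were lowered and 2 were not called. The 60.0% called is near the 57.8% of all genes, of which 29.1% were raised. Their median log2 fold change was 0.46 beside 0.01 for all genes. ABC transporter F family member 1 (TRINITY_DN5248_c1_g1), a relative of yeast and plant factors of translation, had 163, 130.0 and 139 CPM in control replicates 1, 2 and 3 and 246, 216 and 233 CPM in salt replicates 1, 2 and 3. Every salt library lay above every control library (log2 fold change 0.68 with SE 0.13, edgeR adjusted p = 0.00333). Family members 4 (TRINITY_DN5169_c2_g1; log2 fold change 0.57, SE 0.15) and 5 (TRINITY_DN5169_c2_g5; log2 fold change 0.46, SE 0.10) were raised as well, the former being a mixed row that shares its counts with a glycosyltransferase. The rows named for family member 3 (TRINITY_DN4745_c0_g9; log2 fold change 0.27, SE 0.15, and TRINITY_DN5169_c2_g2; log2 fold change 0.19, SE 0.23) were not called. The 5 fold changes stayed above 0 under every scaling, filter and left-out library tried, with a median between 0.42 and 0.65. The 3 TRINITY_DN5169_c2 rows share an identifier up to the last part, so the assembler may have split 1 gene between them. All 8 rows with that identifier summed to a log2 fold change of 0.48 (edgeR adjusted p = 0.0031). The best match of TRINITY_DN4745_c0_g9 was a protein of the fungus Sporisorium reilianum.

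ABCE1, also called Rli1, is an iron-sulfur ATPase that in yeast and animals splits ribosomes after translation ends. Its row (TRINITY_DN4323_c0_g1) carried the RLI and Fer4 domains of that protein and, on the FPKM scale, the highest level among rows without a subfamily letter, with 222 ± 38.7 FPKM in control and 386 ± 56.3 FPKM in salt (SD, n = 3 each). In CPM it had 232, 173 and 167 CPM in control replicates 1, 2 and 3 and 342, 306 and 279 CPM in salt replicates 1, 2 and 3. All 3 salt libraries exceeded all controls, of which replicate 1 was the highest (log2 fold change 0.70 with SE 0.16, edgeR adjusted p = 0.00968). Counting every row whose frame holds at least 2 ATPase domains, 6 of 10 were raised, 0 were lowered and 4 were not called. Their median log2 fold change was 0.46. The 60.0% called is near the 57.8% of all genes, of which 29.1% were raised. Without control replicate 2 or control replicate 3 the count raised was 4. These 10 include 4 of subfamily F and ABCE1, so they are no separate evidence.

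Rows with the names of iron-sulfur cluster assembly proteins were among those raised. TRINITY_DN5651_c2_g3 matched SufC in KEGG, the soluble ATPase of the SUF complex that builds iron-sulfur clusters in plastids. It had 17.9, 29.1 and 30.2 CPM in control replicates 1, 2 and 3 and 60.9, 52.0 and 64.4 CPM in salt replicates 1, 2 and 3, with no overlap and the lowest value in control replicate 1 (log2 fold change 1.20 with SE 0.22, edgeR adjusted p = 0.00309). Its Trinity cluster (rows that share an identifier up to the last part, and between which the assembler may have split 1 gene) holds 4 rows, and their summed counts went the other way, with a log2 fold change of -1.36 (edgeR adjusted p = 0.000677). Among the SUF partner genes found by name, the chloroplast cysteine desulfurase 2 (TRINITY_DN3295_c0_g1), which supplies the sulfur, was raised from 38.6, 35.3 and 33.8 CPM in the control libraries to 65.3, 66.6 and 64.3 CPM in the salt libraries (log2 fold change 0.87 with SE 0.11, edgeR adjusted p = 0.000585). A row of the UPF0051 family, to which the SufB scaffold belongs (TRINITY_DN4430_c1_g2), had a log2 fold change of -0.18 (SE 0.11) and was not called; without control replicate 1 it was called lowered (-0.23, adjusted p = 0.0440).

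Subfamily I had 3 rows, of which 2 were raised and 1 was lowered, beside 29.1% of all genes raised and 28.7% lowered. A pair of rows named for family member 20, with the KEGG name CAF16, was raised: TRINITY_DN5094_c0_g5 went from 9.62, 8.44 and 6.66 CPM in the control libraries to 21.8, 19.8 and 24.0 CPM in the salt libraries (log2 fold change 1.40 with SE 0.19, edgeR adjusted p = 0.000779). TRINITY_DN2367_c0_g1 had a log2 fold change of 0.63 with SE 0.17 (edgeR adjusted p = 0.0179), and its call was lost without control replicate 3 (adjusted p = 0.0564) or salt replicate 3 (adjusted p = 0.0617). Both lie at low levels, under 25 CPM in every library, and the summed cluster of TRINITY_DN5094_c0_g5, with 11 rows, had a log2 fold change of -0.45 (edgeR adjusted p = 0.0211). The chloroplast family member 10 (TRINITY_DN5546_c3_g1) was lowered, with 177, 157 and 171 CPM in control and 80.9, 89.3 and 89.1 CPM in salt (log2 fold change -0.96 with SE 0.10, edgeR adjusted p = 0.000342). It is a mixed row that also encodes RCC1 and BRX domains.

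Subfamily B, which in plants and animals includes exporters of mitochondria, vacuoles and the cell surface, had 2 of 5 rows raised, 1 lowered and 2 not called. The 60.0% called is near the 57.8% of all genes, of which 29.1% were raised and 28.7% lowered. A row matched to ABC transporter B family member 25 of rice (TRINITY_DN4532_c1_g4) rose from 73.2, 47.4 and 44.4 CPM in the control libraries to 90.8, 105 and 101 CPM in the salt libraries (log2 fold change 0.84 with SE 0.20, edgeR adjusted p = 0.0106). Its groups did not overlap, and control replicate 1 was the highest control. A row of the same number marked mitochondrial (TRINITY_DN6020_c5_g2) has the KEGG name of Atm, in yeast the mitochondrial exporter needed for iron-sulfur proteins of the cytosol. It had a log2 fold change of 0.44 with SE 0.16 (edgeR adjusted p = 0.0543) and was not called; it was called raised with the replicate block (adjusted p = 0.0498) and without control replicate 1 (0.29, adjusted p = 0.0272). A further row with that KEGG name (TRINITY_DN4949_c0_g1) was raised slightly (log2 fold change 0.30 with SE 0.10, edgeR adjusted p = 0.0374). It was no longer called once the replicate block was added (adjusted p = 0.0598), nor without any 1 library other than control replicate 1 (adjusted p from 0.0689 to 0.138). ABCB6, in humans a transporter linked to porphyrins and mitochondria, gave its KEGG name to TRINITY_DN4397_c0_g2, which had 62.3, 59.3 and 55.8 CPM in control replicates 1, 2 and 3 and 121, 110.4 and 112 CPM in salt replicates 1, 2 and 3. Its groups lay well apart and its replicates close together (log2 fold change 0.95 with SE 0.10, edgeR adjusted p = 0.000319). The 5 rows of its cluster, of which it is the 1 ABC transporter row, summed to a log2 fold change of 4.31 (edgeR adjusted p = 4.49e-05).

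Both remaining called rows of subfamily B were mixed. The row named ATP-binding cassette sub-family B member 9 (TRINITY_DN5912_c0_g1), in mammals a peptide transporter of lysosomes, was raised from 153, 163 and 162 CPM in the control libraries to 316, 341 and 348 CPM in the salt libraries (log2 fold change 1.07 with SE 0.10, edgeR adjusted p = 0.000224). It also holds reading frames with condensin, Dor1 and Vps54 domains. Family member 19 (TRINITY_DN4609_c0_g1), known in Arabidopsis for auxin transport, had the highest level of the subfamily, with 128 ± 6.60 FPKM in control and 98.6 ± 7.95 FPKM in salt (SD, n = 3 each). It was lowered by little (log2 fold change -0.42 with SE 0.12, edgeR adjusted p = 0.0236). That call was lost with library totals as the only scaling (-0.23, edgeR adjusted p = 0.156), with no filter on low counts and without any 1 of control replicates 2 or 3 or salt replicates 1 or 3, where adjusted p lay between 0.0595 and 0.111.

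Subfamily C held the deepest fall, in 1 of 2 lowered rows of 7. Its share lowered, 28.6%, is near the 28.7% of all genes. Its members in plants and yeast are known for moving glutathione conjugates and other organic anions into vacuoles. A row named canalicular multispecific organic anion transporter 1 (TRINITY_DN5377_c3_g2), after a mammalian exporter of conjugates into bile, had 373, 4541 and 4479 CPM in control replicates 1, 2 and 3 and 54.0, 13.7 and 92.2 CPM in salt replicates 1, 2 and 3. Control replicates 2 and 3 were near each other, control replicate 1 lay about an order of magnitude below them, and all 3 salt libraries lay below every control (log2 fold change -5.88 with SE 1.16, edgeR adjusted p = 0.00449). The ratio within replicate 1 was -2.79 on the log2 scale, and with replicates 2 and 3 alone the log2 fold change was -6.41 (edgeR adjusted p = 0.00222). In control replicates 2 and 3 this row alone took 26.7% and 26.3% of the counts of all ABC transporter rows, against 2.47% in control replicate 1 and 0.113% to 0.824% in salt. Without salt replicate 3, the highest salt library, it was -6.51 (edgeR adjusted p = 0.0138). Summing the 5 rows of its cluster gave -5.02 (edgeR adjusted p = 0.00355). Its frame ran from a membrane domain at residue 127 to a further membrane domain ending at 869, with the second ATPase domain in a separate frame.

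Of the other 6 rows of subfamily C, 1 was lowered and 5 were not called. ABC transporter C family member 3 (TRINITY_DN5522_c1_g1) had a log2 fold change of -0.95 (SE 0.21) and is a mixed row with an origin recognition complex subunit; its best match was a bee protein. The complete family member 2 (TRINITY_DN4467_c0_g5) had 198, 197 and 214 CPM in control and 172, 215 and 198 CPM in salt, and the groups overlapped (log2 fold change -0.06 with SE 0.12, edgeR adjusted p = 0.711). The 4 others had log2 fold changes between 0.09 and 0.32; the highest of these, multidrug resistance-associated protein 4 (TRINITY_DN5522_c0_g5), was called raised without control replicate 1 (0.54, adjusted p = 0.00355) and with replicates 2 and 3 alone (0.48, edgeR adjusted p = 0.00277).

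Glutathione genes were listed beside subfamily C because they make the conjugates it is known to carry. Of 14 rows found by name, 10 were tested, 3 were raised, 4 were lowered and 3 were not called. Over all genes 29.1% were raised and 28.7% lowered. The median log2 fold change of the 10 was -0.23, or 0.05 without control replicate 1. The lowered rows were the enzymes of glutathione synthesis, glutamate-cysteine ligase (TRINITY_DN5506_c1_g1; log2 fold change -1.20 with SE 0.22, edgeR adjusted p = 0.00328) and glutathione synthetase (TRINITY_DN5252_c0_g5; log2 fold change -0.95, SE 0.22), and the transferases T1 (TRINITY_DN5861_c3_g1; log2 fold change -1.49, SE 0.17) and P (TRINITY_DN5145_c2_g2; log2 fold change -1.49, SE 0.42). The raised rows neither make nor conjugate glutathione. They were a pair of hydroxyacylglutathione hydrolases and an S-formylglutathione hydrolase, which clear glutathione adducts of aldehydes and were caught by the word pattern. The pair shares a cluster, and TRINITY_DN4604_c1_g8 had only 0.0479, 0.0999 and 0.189 CPM in control and 1.04, 1.24 and 1.17 CPM in salt. Microsomal glutathione S-transferase 3 (TRINITY_DN5773_c1_g2), otherwise not called, was called raised without control replicate 1 (0.31, edgeR adjusted p = 0.0220). MatE carriers, exporters of toxins that use ion gradients in place of ATP, had 5 of 14 raised, 0 lowered and 9 not called, with a median of 0.34. The 35.7% raised stands beside 29.1% of all genes raised and 57.8% called. The count fell to 2 without salt replicate 3 and 3 without control replicate 2, and was 8 with library totals as the only scaling. Without control replicate 1, 1 row was lowered (TRINITY_DN4018_c0_g1; log2 fold change -0.91, edgeR adjusted p = 0.000672).

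Subfamilies linked to lipids went both ways. Some Arabidopsis and human members of subfamily D bring fatty acyl chains into peroxisomes. Of the 3 rows here, 2 were lowered, 0 raised and 1 not called, where 28.7% of all genes were lowered. The median log2 fold change of the 3 was -0.78. All 3 were named for ABC transporter D family member 2. TRINITY_DN5128_c2_g5 and TRINITY_DN4612_c1_g4 matched the Arabidopsis protein of that name, marked chloroplastic, and TRINITY_DN5486_c2_g8 that of Dictyostelium. Whether any of them serves peroxisomes was not tested. TRINITY_DN5128_c2_g5 had 179, 159 and 167 CPM in control replicates 1, 2 and 3 and 45.8, 69.0 and 61.9 CPM in salt replicates 1, 2 and 3, with every salt library below every control (log2 fold change -1.52 with SE 0.17, edgeR adjusted p = 0.000352). The summed counts of its 8-row cluster changed by less, -0.15, and were not called (edgeR adjusted p = 0.177). TRINITY_DN4612_c1_g4 had a log2 fold change of -0.78 (SE 0.13). TRINITY_DN5486_c2_g8 had a log2 fold change of -0.40 (SE 0.22) and overlapping groups. A row with the KEGG name ABCD4 (TRINITY_DN5211_c2_g1), in mammals a protein of vitamin B12 handling, was raised from 29.0, 33.1 and 36.6 CPM in the control libraries to 57.7, 55.7 and 68.5 CPM in the salt libraries (log2 fold change 0.88 with SE 0.14, edgeR adjusted p = 0.00182); its Swiss-Prot name is the bacterial glycerol phosphate importer subunit UgpC.

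Subfamily A, known in animals for moving lipids and sterols, had 1 row raised, 1 lowered and 1 not called. Over all genes 29.1% were raised and 28.7% lowered. The row named sub-family A member 7 (TRINITY_DN4809_c1_g3) had 109, 95.2 and 104 CPM in control replicates 1, 2 and 3 and 154, 209.7 and 192 CPM in salt replicates 1, 2 and 3 (log2 fold change 0.85 with SE 0.14, edgeR adjusted p = 0.00215). Each salt library lay above each control. Family member 7 (TRINITY_DN5925_c0_g3) had 84.5, 119 and 119 CPM in control and 114, 124 and 123 CPM in salt; the groups overlapped through control replicates 2 and 3, and it was not called (log2 fold change 0.16 with SE 0.15, edgeR adjusted p = 0.400). Family member 3 (TRINITY_DN5314_c3_g1), under 10 CPM throughout, was lowered (log2 fold change -1.19 with SE 0.35, edgeR adjusted p = 0.0228). That call was lost with library totals alone and without control replicate 2, control replicate 3, salt replicate 1 or salt replicate 3 (adjusted p from 0.0536 to 0.0809). The TGD proteins, which form an ABC complex that imports lipids into plastids but fall outside the domain rule here, split: TGD3, the ATPase (TRINITY_DN5494_c4_g3; log2 fold change -0.85 with SE 0.18, edgeR adjusted p = 0.00651), and TGD2, the lipid-binding part (TRINITY_DN4506_c1_g1; log2 fold change -0.60, SE 0.14), were lowered, and TGD1, the permease (TRINITY_DN5012_c3_g6; log2 fold change 0.38 with SE 0.10, edgeR adjusted p = 0.0168), was raised. The call of TGD1 was lost without control replicate 2, control replicate 3 or salt replicate 3 (adjusted p from 0.0571 to 0.0729). The TGD2 row also held a domain named WD40, and the TGD1 row a domain named DUF1995. Whether these rows share their counts with another protein, as mixed rows do, was not tested.

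Subfamily G, whose plant members export waxes, hormones and defence compounds, had 8 of 14 rows lowered, 1 raised and 5 not called, where 28.7% of all genes were lowered and 29.1% raised. The median log2 fold change of the 14 was -0.71. In the 10 rows that are not mixed, 6 were lowered and 1 raised. Under every scaling, filter and left-out library tried, 8 rows were lowered; the raised rows numbered 3 without control replicate 1 and 2 with the replicate block. ABC transporter G family member 31 (TRINITY_DN5798_c1_g1), in Arabidopsis active in coating pollen, had 389, 468 and 469 CPM in control replicates 1, 2 and 3 and 108, 121 and 98.8 CPM in salt replicates 1, 2 and 3. The groups lay 4.05-fold apart, with little spread within each (log2 fold change -2.02 with SE 0.14, edgeR adjusted p = 6.57e-05). Family member 14 (TRINITY_DN5405_c2_g1), in Arabidopsis a carrier of cytokinin hormones, was lowered from 563, 416 and 418 CPM in the control libraries to 161, 157 and 164 CPM in the salt libraries (log2 fold change -1.53 with SE 0.15, edgeR adjusted p = 0.000239). It is a mixed row. Family member 36 (TRINITY_DN5539_c1_g2), in Arabidopsis a defence transporter of the cell surface, had the highest level of the subfamily, with 118 ± 10.6 FPKM in control and 63.0 ± 18.3 FPKM in salt (SD, n = 3 each). It fell by 0.58 on the log2 scale (SE 0.10, edgeR adjusted p = 0.00229) and is also mixed.

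The largest fold in subfamily G was at a low level. A row named for family member 15 (TRINITY_DN2262_c0_g1) had 11.6, 3.84 and 3.39 CPM in control replicates 1, 2 and 3 and 0.317, 0.277 and 0.479 CPM in salt replicates 1, 2 and 3 (log2 fold change -4.11 with SE 0.62, edgeR adjusted p = 0.00140). Control replicate 1 was 3.20 times the mean of the other controls, and with replicates 2 and 3 alone the log2 fold change was -3.23 (edgeR adjusted p = 0.000756). The other row of that name (TRINITY_DN5376_c1_g1) had a log2 fold change of 0.01 (SE 0.23) and was not called. The 4 other lowered rows, TRINITY_DN5798_c1_g3 among them, ranged from -1.46 for sub-family G member 2 (TRINITY_DN5966_c0_g7) to -0.83 for family member 9 (TRINITY_DN5816_c0_g1). Of 3 rows named sub-family G member 2, in humans an exporter of many drugs, 2 were lowered and TRINITY_DN5032_c1_g1 had a log2 fold change of 0.02 (SE 0.10).

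The raised row of subfamily G was family member 35 (TRINITY_DN4731_c3_g9), with 23.7, 25.6 and 26.0 CPM in control replicates 1, 2 and 3 and 141, 66.5 and 47.2 CPM in salt replicates 1, 2 and 3. Salt replicate 1 was the highest and the groups did not overlap (log2 fold change 1.76 with SE 0.39, edgeR adjusted p = 0.00720). Its frame places an ABC2_membrane domain at residues 211 to 421 ahead of an ATPase domain at 649 to 801, which is the middle of a full-size transporter. The 12 rows of its cluster summed to a log2 fold change of -0.04 (edgeR adjusted p = 0.908), so the rise was in this row and not in the cluster as a whole.

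**Figure D3:**
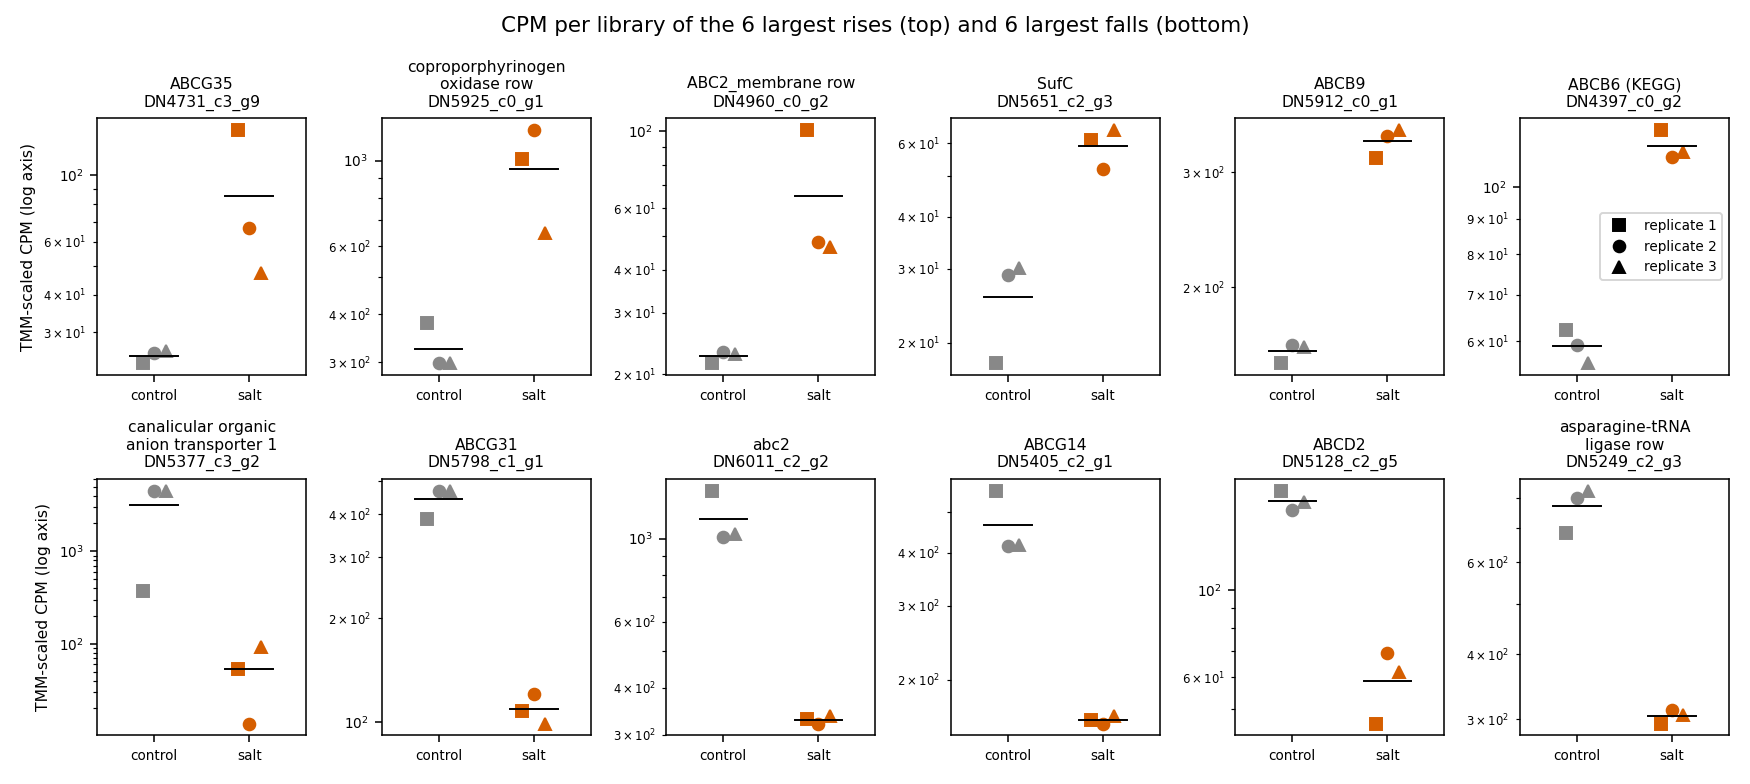
TMM-scaled CPM on log axes in each control and salt library for the 6 largest rises (top) and 6 largest falls (bottom) among called ABC transporter rows whose groups do not overlap and whose level is at or above the median level of all tested genes; symbols mark the replicate number and black lines the group means. Salt replicate 1 is the highest point of the ABCG35 row, and control replicate 1 is the lowest control of the canalicular transporter row.

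Pleiotropic drug resistance proteins are full-size G-type transporters first known from yeast, where they expel fungicides and other toxins. Of the 7 rows with this name, 1 was raised, 1 was lowered and 5 were not called, or 28.6% called against 57.8% of all genes. The 7 were taken by name alone. TRINITY_DN4731_c3_g9 (log2 fold change 1.76, raised) and TRINITY_DN5539_c1_g2 (-0.58, lowered) hold a domain named PDR_assoc but were counted in subfamily G. TRINITY_DN5664_c1_g2 (1.37, not called) holds it too and has no description. The 28.6% therefore describes the name and not all full-size G-type transporters. The count of the 7 differed without control replicate 1, where 3 were raised and 1 lowered, or 57.1% called. In that fit 7538 of all 11751 genes tested were called, 3875 raised and 3663 lowered. The median log2 fold change of the 7 went from -0.13 with all libraries to 0.36 in that fit. The raised row (TRINITY_DN5981_c5_g1; log2 fold change 0.57, SE 0.14) and the lowered row (TRINITY_DN5249_c1_g1; log2 fold change -0.51, SE 0.10) are both mixed and both named for protein 1. The complete protein 2 row (TRINITY_DN5961_c2_g1) had 354, 351 and 373 CPM in control and 312, 331 and 340.4 CPM in salt (log2 fold change -0.13 with SE 0.11, edgeR adjusted p = 0.321). Counting all rows by membrane domain, ABC2_membrane, the domain of G-type transporters, had 13 of 29 rows lowered, 3 raised and 13 not called, with a median of -0.51, where 28.7% of all genes were lowered and 29.1% raised. Without control replicate 1 there were 14 lowered and 7 raised, with a median of -0.14. ABC_membrane, the domain of subfamilies B and C, had 4 of 17 lowered, 5 raised and 8 not called, with a median of 0.11; 8 were raised without control replicate 1, and 2 were lowered without salt replicate 3. Of the 14 rows whose frame has the ATPase domain first, 7 were lowered and 0 were raised, and 3 were raised without control replicate 1. The difference between these classes was not tested.

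Control replicate 1 departed from the other controls in a number of G-type rows. In 11 of the 79 members, or 13.9%, its level was over 2-fold above the mean of control replicates 2 and 3, against 5.35% of all genes. On the low side the order was the other way. It lay over 2-fold below that mean in 1 of the 79 members, against 1081 of all 11438 genes. Of the 11 members with a high control replicate 1, 10 carried ABC2_membrane or a G or pleiotropic drug resistance name. That is 28.6% of the 35 tested rows of that kind. Salt replicate 1 did not share the departure, at 0.768 to 1.34 times the mean of the other salt libraries in the same 11 rows. TRINITY_DN5664_c1_g2, a mixed row without a description, was the extreme, with 262, 15.0 and 18.4 CPM in control replicates 1, 2 and 3 and 272, 253 and 238 CPM in salt replicates 1, 2 and 3. Control replicate 1 lay among the salt libraries and the other controls far below them. The row was not called over all libraries (log2 fold change 1.37 with SE 1.03, edgeR adjusted p = 0.289); the adjusted p was 2.04e-05 with replicates 2 and 3 alone, where the log2 fold change was 3.89, and 0.0475 with the replicate block.

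The pleiotropic drug resistance row TUR2 (TRINITY_DN5125_c1_g5) had 499.8, 129 and 143 CPM in control and 217, 266 and 189.7 CPM in salt. Control replicate 1 exceeded every salt library, and control replicates 2 and 3 lay below all of them. The log2 fold change was -0.20 over all libraries (SE 0.52, edgeR adjusted p = 0.765) and 0.76 with replicates 2 and 3 alone (adjusted p = 0.0106). Over the 11 rows, 1 was called over all libraries, and with replicates 2 and 3 alone 7 were raised, 1 was lowered and 3 were not called. In 7 of them the replicate 1 ratio had the opposite sign to replicates 2 and 3. The 11 rows were chosen for a high control replicate 1. That choice by itself widens the spread of the controls and lowers the replicate 1 ratio, so these counts are no separate evidence. The part of the replicate 1 libraries in these results was not tested further.

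**Figure D4:**
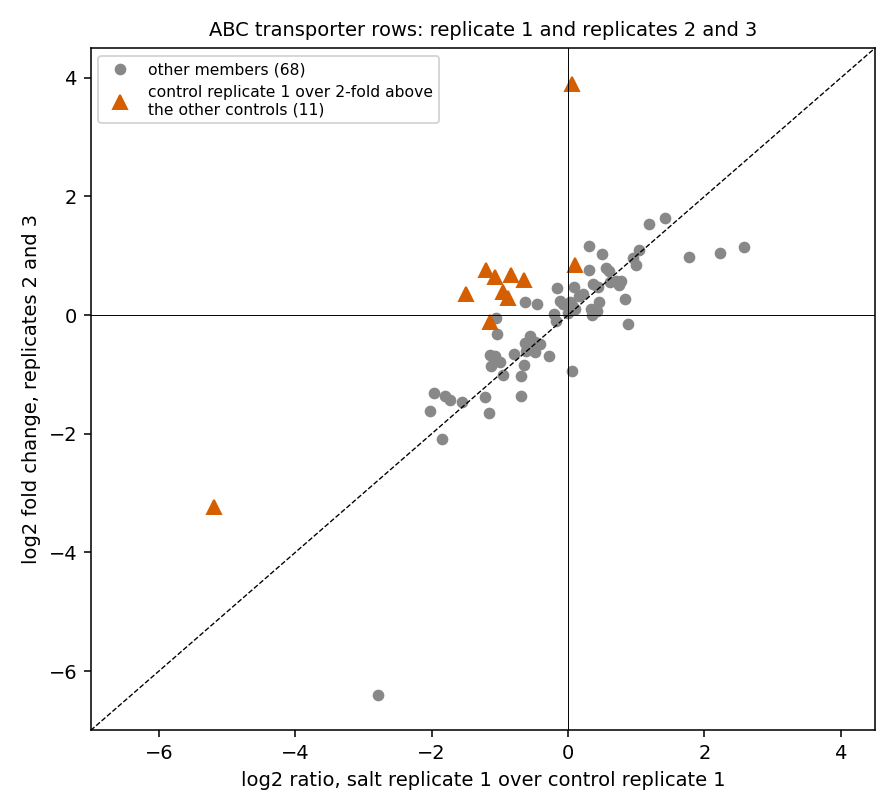
Log2 ratio of salt to control within replicate 1 (x axis) against the log2 fold change fitted on replicates 2 and 3 alone (y axis) for the 79 tested ABC transporter rows, with equality dashed; orange triangles mark the 11 rows whose control replicate 1 was over 2-fold above the other controls. Most rows lie near the line, while 7 triangles lie left of 0 and above 0, a position that the choice of these rows favours. The lowest point is the canalicular transporter row, at -2.79 and -6.41.

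With replicates 2 and 3 alone, 31 members were raised and 28 lowered, a share of 74.7% of 79 against 69.1% of all genes. All 47 calls of the fit over 6 libraries were kept with the same sign, and 12 were added, 11 of them raised. Opposite signs in the replicate 1 ratio and in replicates 2 and 3 were found in 17 of 79 members, or 21.5%, against 16.4% of all genes. With the replicate number as a block, 50 members were called, 4 of them new, and 1 call was lost.

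Rows with no description or a description outside the lettered subfamilies held several of the larger changes. TRINITY_DN4920_c0_g1, a membrane piece of the ABC2_membrane kind with no description, was lowered from 30.6, 28.6 and 30.2 CPM in the control libraries to 10.4, 10.5 and 10.7 CPM in the salt libraries (log2 fold change -1.50 with SE 0.12, edgeR adjusted p = 0.00011). The 5 member rows of its cluster ranged from -1.52 (TRINITY_DN4920_c0_g9) to 0.23 (TRINITY_DN4920_c0_g11, called raised without control replicate 1, at 0.40, adjusted p = 0.00943), and all 19 rows summed to -0.33 (edgeR adjusted p = 0.141). Another ABC2_membrane piece, TRINITY_DN4960_c0_g2, was raised, with 21.5, 23.2 and 22.9 CPM in control and 101, 48.2 and 46.4 CPM in salt and the highest value in salt replicate 1 (log2 fold change 1.53 with SE 0.31, edgeR adjusted p = 0.00514). Here too the other rows of the cluster differed: TRINITY_DN4960_c0_g1 was lowered (log2 fold change -0.53, SE 0.10), and the 9 rows summed to -0.30 (edgeR adjusted p = 0.259). TRINITY_DN4936_c1_g3, a full-size chain with ABC_membrane_2 domains and no name, was raised (log2 fold change 0.58 with SE 0.17, edgeR adjusted p = 0.0201), a call lost without control replicate 2, control replicate 3 or salt replicate 2 (adjusted p from 0.0652 to 0.0805).

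The rows named for bacterial CysA and MsbA and for the insect protein white stayed within 2-fold. The sulfate importer subunit CysA (TRINITY_DN5322_c2_g1), which in green algae serves the plastid, was lowered (log2 fold change -0.47 with SE 0.11, edgeR adjusted p = 0.0110), and not called with library totals alone (-0.28, adjusted p = 0.0664). A row named for the bacterial lipid A exporter MsbA (TRINITY_DN4651_c0_g5) had a log2 fold change of -0.06 (SE 0.45) over all libraries and 0.68 with replicates 2 and 3 alone (edgeR adjusted p = 0.00163), being among the 11 rows with a high control replicate 1. Protein white (TRINITY_DN5494_c4_g4), in Drosophila a carrier of eye pigment precursors, had 148, 293 and 286 CPM in control replicates 1, 2 and 3 and 153, 113 and 188 CPM in salt replicates 1, 2 and 3. It was not called over all libraries (log2 fold change -0.68 with SE 0.30, edgeR adjusted p = 0.0909), and was called lowered without control replicate 1, the lowest control (-0.93, adjusted p = 0.00759), and with replicates 2 and 3 alone (-0.94, adjusted p = 0.0141).

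For mixed rows the change cannot be assigned to the transporter. The largest falls after the canalicular and G family member 31 rows include the row named abc2 (TRINITY_DN6011_c2_g2), with 1344, 1012 and 1027 CPM in control replicates 1, 2 and 3 and 330.2, 321 and 336 CPM in salt replicates 1, 2 and 3 (log2 fold change -1.78 with SE 0.16, edgeR adjusted p = 0.000157), which also encodes a NUDIX hydrolase. A row named asparagine-tRNA ligase (TRINITY_DN5249_c2_g3) was lowered from 683, 799.5 and 825 CPM in the control libraries to 294, 313 and 306 CPM in the salt libraries (log2 fold change -1.34 with SE 0.13, edgeR adjusted p = 0.000213), and its ABC frames share the counts of that enzyme. The row named coproporphyrinogen-III oxidase (TRINITY_DN5925_c0_g1), an enzyme of heme and chlorophyll synthesis, was raised, with 379, 299 and 299 CPM in control and 1010.0, 1200.1 and 650.2 CPM in salt (log2 fold change 1.55 with SE 0.25, edgeR adjusted p = 0.00174); 3 of its 4 frames carry ABC domains. Of the 25 mixed rows, 6 (24.0%) were raised and 11 (44.0%) lowered. Of the other 54 tested rows, 14 (25.9%) were raised and 16 (29.6%) lowered. Over all genes 29.1% were raised and 28.7% lowered. Without control replicate 1, 22 of the 54 were raised, where 3875 of all 11751 genes tested were raised and 3663 lowered.

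The 81 rows fell into 64 Trinity clusters, and 12 clusters held 2 or more of them, 29 rows in all. In 2 of the 12, 1 row was raised and another lowered: TRINITY_DN4949_c0_g1 (0.30) beside TRINITY_DN4949_c0_g6 (-0.47, not called without salt replicate 2 or 3), and the TRINITY_DN4960 rows above. The sources used here do not say how reads were shared between such rows. The transcript length implied by counts and FPKM shifted between conditions by over 1.2-fold, without overlap of groups, in 4 of 78 members, or 5.13%, against 3.01% of all genes. In ABC transporter G family member 14 (TRINITY_DN5405_c2_g1) it was 1.44 times as long in salt, and the fall was deeper on the FPKM scale, with 77.5 ± 6.44 FPKM in control and 19.2 ± 1.32 FPKM in salt (SD, n = 3 each).

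The authors' deposited table marked 17 of the 81 rows as significant, 5 up and 12 down, where 4300 of all 22972 rows were marked. The smallest log2 fold change among the 17 was 1.02 in size, and all 17 were also called here in edgeR. A further 16 rows were named for ABC transporters without a domain of the rule, 12 of them without any Pfam entry, and 3 of the 16 are the TGD proteins above. Of the 8 with enough counts, 1 was raised, 5 were lowered and 2 were not called, where 29.1% of all genes were raised and 28.7% lowered. The ABC1 family, whose name is alike but whose members are atypical kinases, had 6 of 14 rows raised, 2 lowered and 6 not called. The 57.1% called is near the 57.8% of all genes.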

How the data were processed

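TRIzol was used to extract total RNA of 3 control and 3 salt samples, per the labels' protocols. The labels name both Illumina sequencing and a Proton library procedure, and which applies is not settled here. The authors deposited whole-number read counts per assembled gene, without normalization, and FPKM values, per the file headers. The deposited table also holds the authors' log2 fold change, p-value and FDR. The aligner, the counting tool and the authors' test were not given in the sources used here.

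All genes were tested on the deposited counts with edgeR 4.0.16 (limma 3.58.1) in R 4.3.3, with TMM factors, filterByExpr (minimum count 10), the quasi-likelihood test of salt against control and Benjamini-Hochberg adjustment at 0.05. Levels are TMM-scaled CPM. Dividing the size of a log2 fold change by the root of its F gave the standard error. The limit for a gene at 0 was 3 counts in a library, 0.125 to 0.182 CPM, which covers counting error only. The procedure was tested on simulated counts. Alternatives were DESeq2 1.42.0, other scalings and filters, a replicate block, leaving out libraries and summing rows of a cluster.

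Members and lists were chosen with earlier results of these data known. Letters were read from "ABC transporter X family" and also from "sub-family X member" names, and elongation factor 3 was recognised from the non-redundant and KEGG names. Members named by rule were, in each subfamily with a tested row and among rows without a letter, that with the smallest p and that with the highest mean FPKM, and the 6 called rows that rose most and the 6 that fell most, without overlap of groups, at or above the median CPM of tested genes. Summing all rows of a cluster and omitting mixed rows were alternatives added after the data were seen.

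Same-numbered libraries deviated from their group means together, with correlations of 0.38, 0.17 and 0.22 for replicates 1, 2 and 3, all over the criterion of 0.1. Control replicate 2 and salt replicate 3 reached 0.28, and what the numbers stand for is not stated. The check cannot tell pairing from replicate 1 libraries that stand apart together, so the block is an alternative. No reference sequence was used.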

Additional observations from a re-analysis of the deposited data

How the results depend on the processing

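The counts of 20 raised and 27 lowered members were within 1.5 times of these values under every alternative other than those named next. With replicates 2 and 3 only, 31 were raised. With a minimum of 2-fold, 6 were raised and 11 lowered, and with mixed rows left out 16 of 54 were lowered; fewer rows can pass in both by construction. Leaving out each library in turn gave 16 to 30 raised and 24 to 28 lowered members, 5518 to 7538 of all genes called and 19 to 26 of the partner genes; the 30 was without control replicate 1. The median of members lay between -0.14 and 0.12 in these fits and at 0.17 with replicates 2 and 3 only. Library totals alone moved the median of all genes to 0.20, with 4064 raised and 2658 lowered against 3331 and 3285, and that of members to 0.16.

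With the replicate block, 22 members were raised, 28 lowered and 6846 of all genes called, and no call of the 20 members named by rule changed. With all rows of a cluster summed, the sign turned for TRINITY_DN4731_c3_g9, ABC transporter G family member 35 (-0.043), for TRINITY_DN4960_c0_g2 (-0.30) and for TRINITY_DN5651_c2_g3, the SufC row (-1.36); the calls of TRINITY_DN4920_c0_g1 and TRINITY_DN5128_c2_g5 were lost and that of TRINITY_DN5925_c0_g3 was gained. Which rows of a cluster belong to 1 gene was not tested. The other alternatives kept direction and call for all 20, other than TRINITY_DN4609_c0_g1.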

Other observations

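Levels were summed over the rows of a subfamily on the FPKM scale. The sums are descriptions with no test, and a sum follows its most abundant rows. Mixed rows are included, among them 3 of the 5 rows of subfamily B and 4 of the 14 of subfamily G. A sum with mixed rows is therefore not the pool of the transporters alone. The 5 rows of subfamily F summed to 101, 113 and 114 FPKM in control replicates 1, 2 and 3 and 167, 149.6 and 165 in salt, without overlap. Those of subfamily B, with exporters of mitochondria and vacuoles, summed to 203, 227 and 220.3 in control and 234, 252 and 237 in salt, also without overlap. The 3 rows of subfamily D summed to 189, 198 and 200.5 in control and 88.0, 115 and 107 in salt. Every salt library was below every control. The 14 rows of subfamily G summed to 681, 737 and 671 in control and 533, 408 and 422 in salt. Its 10 rows that are not mixed summed to 434, 495 and 458 in control and 332, 289 and 296 in salt. In subfamily C the sums were 246, 1351 and 1283 in control and 198, 189.7 and 199.8 in salt, and in control replicates 2 and 3 most of it was the canalicular transporter row. The 7 pleiotropic drug resistance rows summed to 692, 400.2 and 386 in control and 454, 502 and 425 in salt, where control replicate 1 exceeded all salt libraries and control replicates 2 and 3 lay below them.

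Carriers beside the ABC group that were raised included the MatE row with the largest rise, TRINITY_DN4382_c5_g3, which has no description. It had 3.78, 2.85 and 2.33 CPM in control and 119, 158 and 74.6 CPM in salt (log2 fold change 5.28 with SE 0.35, edgeR adjusted p = 5.74e-05). A MatE row named multidrug and toxin extrusion protein 1 (TRINITY_DN4659_c2_g4) was raised as well. It had 21.2, 13.0 and 11.4 CPM in control and 37.2, 34.2 and 31.7 CPM in salt (log2 fold change 1.17 with SE 0.24, edgeR adjusted p = 0.00553). A second row of that name (TRINITY_DN4830_c0_g1) had a log2 fold change of -0.15 (SE 0.18) and was not called. Among the ABC1-type kinases, the largest change was a fall in the row named abkD (TRINITY_DN5784_c1_g1), with 937, 1127 and 1090.2 CPM in control and 425, 347 and 386 CPM in salt (log2 fold change -1.45 with SE 0.15, edgeR adjusted p = 0.000263). These rows were chosen after their values were seen.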
